A study of Oncorhynchus mykiss with 24 samples.

Results

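Lectins are proteins that bind particular sugars, and many of them recognise the sugar coats of microbes. Fucolectins bind fucose and in fishes are secreted proteins of blood plasma, known from the eel as products of the liver. C-type lectins carry a calcium-dependent sugar-binding domain, galectins bind galactose-containing sugars, and rhamnose-binding lectins are found in the eggs and other tissues of many fishes. The liver makes much of the soluble defence protein of the blood, including complement. The 13 oligos described here are all the spots whose name contains "lectin" among the 486 spots that the study listed as different between groups, out of 43689 oligos on the array. They were 2 fucolectins (C220R118 and C224R024), 1 spot named only lectin precursor (C222R099), the C-type lectin CLEC4M (C261R030), 2 spots with a Lectin_C domain (C024R164 and C180R033), 3 spots for galectin-9 (C070R081, C111R157 and C158R014), 2 for galectin-2 (C063R114 and C259R028), 1 rhamnose-binding lectin precursor (C126R112) and 1 fish-egg lectin (C099R048). The study placed 9 of the spots in its category of response to stimulus, the 3 galectin-9 spots in signalling and the rhamnose-binding lectin in none.

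The spots were chosen by their names from lists that the study had selected on differences in these same log2 ratios over all 24 fish, so that their group values are a description, and no p is given for any of them. Liver RNA was measured in 6 rainbow trout in each of 4 groups. The D fish were a domesticated strain from Campbell Lake Trout Farms, long selected for growth, and came from 1 female and 1 male. The W/D fish were hybrids of the same D female with a male of the wild Pennask Lake strain, and the age-matched wild fish (Wa) had that same wild male as father and 1 wild female as mother. The size-matched wild fish (Ws) were of the Pennask Lake strain too, came from the previous year's randomly mated crosses, and matched D in body size. All groups were reared under the same conditions and fed to satiation. The SD of D, W/D and Wa thus describes siblings of 1 family each, and strain and family cannot be told apart, nor can age, body size and family in Wa relative to Ws. At sampling D and Ws were larger in mass than W/D and Wa. The paper describes the hybrids as intermediate in body size between the parental strains. Body size and strain thus cannot be told apart in D relative to Wa, nor body size and cross in W/D relative to D, Wa or Ws. Age and strain cannot be told apart in D or W/D relative to Ws.

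On each array the RNA of 1 fish was labelled with Cy5 and a common reference pool of 6 size-matched wild fish with Cy3, and the log2 ratio is that of Cy5 over Cy3. Each of the 6 slides held 1 fish of every group in a fixed order, and group and slide position cannot be told apart. Fish with the same number were taken to share a slide, from the numbers within their array codes. Arrays had median Cy5 signals of 197 to 246 intensity units, and between 33.6% and 46.2% of the oligos stood above their local background by 2 of its standard deviations. Oligos entered the fit if all 6 arrays of some group gave a Cy5 signal of 300 or more, which held for 8764 oligos and for 11 of the 13 lectin spots. The lectin precursor C222R099 did not pass because 1 fish each of D and W/D and all wild fish gave less than 300. The rhamnose-binding lectin C126R112 did not pass because the quality flag of the image software stood on some of its spots in every group, all 6 of the D fish, 5 of the Wa fish and 3 each of the other groups. Values of these 2 spots come from a fit without the filter and with the flag disregarded. An oligo is referred to as called in a pairing of groups when its adjusted p in limma's moderated test was at most 0.05 and its fold change at least 2.

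The lectin precursor C222R099 was present in an all-or-none manner in D, while W/D fish 2 and 3 were intermediate. In D its Cy5 signal was 38830, 37705, 42086, 45528 and 51661 in fish 1, 3, 4, 5 and 6, and 210 in fish 2. In W/D it was 42670, 42937 and 37295 in fish 1, 5 and 6, 7776 and 7139 in fish 2 and 3, and 201 in fish 4. In Wa it lay between 154 and 196 and in Ws between 169 and 185. The signal of 10 of the 12 D and W/D fish was therefore far above that of every wild fish, while D fish 2 and W/D fish 4 lay close to the wild fish. W/D fish 4 and 6 carried the quality flag here without being saturated, so that the dim hybrid rests on a flagged spot. The spot was at the upper limit of the scanner in 4 D and 2 W/D fish, so that levels among the brightest fish cannot be ranked. It was above its local background in 5 D and 6 W/D fish, W/D fish 4 at 201 among them, in none of the Wa fish and in 1 Ws fish. On the scale of the normalised Cy5 channel, the group means put D 186-fold and W/D 95.6-fold above Wa, with the dim fish of D and W/D included. Saturated values of 4 D and 2 W/D fish went into these means, and D fish 2 and all Wa fish were not above background. The ratios thus do not give exact differences in level. Against Ws, where 1 array measured it, the corresponding ratios were 168 and 86.2. These ratios apply to the Cy5 channel alone, in which dyes were not swapped. The log2 ratios to the reference gave smaller differences from Wa, 90.6-fold for D and 19.5-fold for W/D.

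**Figure D1:**
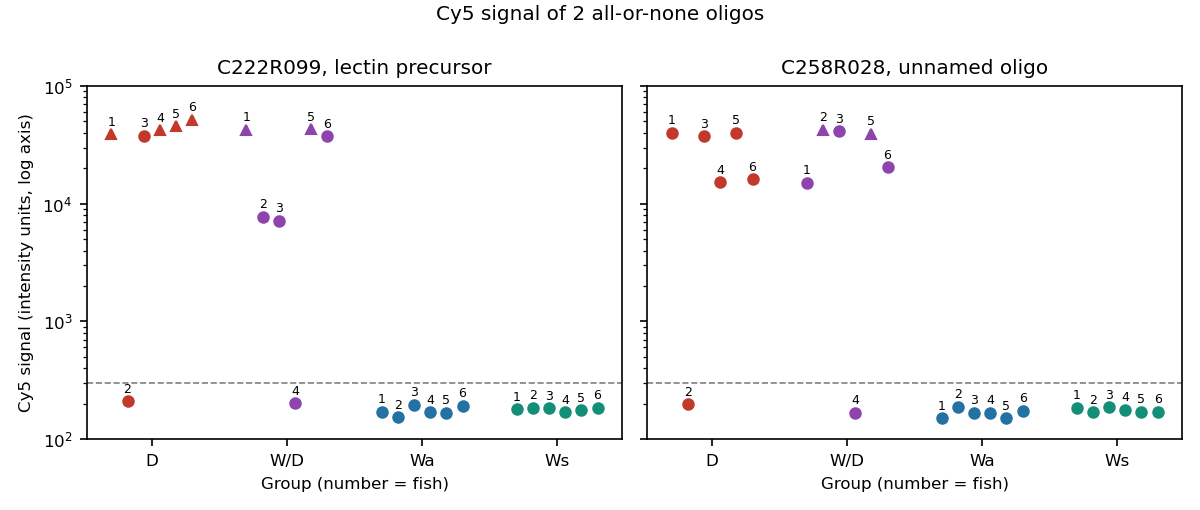
Cy5 signal (log axis, intensity units) of the lectin precursor C222R099 and of the unnamed oligo C258R028 in each fish, by group; numbers are fish, triangles mark spots saturated in Cy5 and the dashed line is the signal minimum of 300. In both panels 5 of 6 D and 5 of 6 W/D fish lie above 5000, while D fish 2, W/D fish 4 and all 12 wild fish lie below the line.

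On the log2 ratio scale C222R099 had a D mean of 6.42 ± 3.27 (SD, n = 6) and a W/D mean of 4.21 ± 3.01, while the Wa mean was -0.08 ± 0.13 and the Ws mean 0.10 ± 0.19. The log2 fold change was 6.50 ± 0.88 (SE) for D relative to Wa and 4.29 ± 0.88 for W/D relative to Wa, from a Wa group without signal above background. Without D fish 2 the former was 7.78, and without W/D fish 4 the latter was 4.99. The reference channel, which held the same pool on every array, was not constant at this spot. It ranged from 202 to 2382 on the arrays of the 10 D and W/D fish with high Cy5 signal, and from 122 to 190 on the other 14. Its Cy3 signal was 2313 and 2382 on the arrays of W/D fish 2 and 3 and at most 546 on the other 22 arrays, and it was the only oligo of the array whose Cy3 signal on both of these arrays was at least 4 times the highest on the others. These are the 2 hybrids with intermediate Cy5 signal, and without them W/D relative to Wa was 5.45 ± 0.93. The part of the reference channel in their lower ratios, and in the ratios of the other bright fish, was not tested. Of the 8 spots around C222R099, the one beside it in the same column, C222R098, reached 1553 on the 10 bright arrays and at most 386 on the other 14. Among the others, C221R098 reached 608 against 210, C221R099 317 against 205 and C222R100 426 against 346. At C223R099 and C221R100 the highest value was on the other 14 arrays, with 6596 against 6631 and 355 against 449.

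A search over the whole array was made after this pattern had been seen. Of the 43689 oligos, 28809 had a Cy5 signal under 300 in all 12 wild fish, and 2 of these exceeded 10000 in at least 1 D and 1 W/D fish. They were C222R099 and C258R028, an oligo that is not among the spots named by the study. The same 2 oligos were found with limits of 5000 and 20000, and 4 oligos with a limit of 2000. C258R028 had a signal of 40039, 37258, 15277, 39992 and 16157 in D fish 1, 3, 4, 5 and 6, and of 198 in fish 2. In the hybrids it was 15010, 42453, 41461, 39423 and 20479 in fish 1, 2, 3, 5 and 6, and 168 in fish 4. The D and W/D fish with a Cy5 signal under 300 were the same for both oligos, D fish 2 and W/D fish 4. Hybrids 2 and 3, which were intermediate for C222R099, were among the brightest for C258R028. In the wild fish C258R028 lay between 150 and 189. The Cy3 reference of C258R028 was 445 to 4562 on the arrays of the fish with high Cy5 signal and 117 to 189 on the others.

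Fucolectin-6 (C220R118) was high in every domesticated and hybrid fish. Its Cy5 signal was lowest at 7834, with a median of 10558 and a highest value of 16370 in D, and it was 5555, 8836 and 9517 in W/D. In Wa the corresponding values were 833, 1508 and 2452, and in Ws they were 1369, 1663 and 2648. Neither D nor W/D overlapped with either wild group, while D and W/D overlapped with each other. D had a mean log2 ratio of 2.30 ± 0.54 (SD, n = 6) and W/D of 1.88 ± 0.39, whereas Wa had -0.38 ± 0.53 and Ws 0.01 ± 0.39. The fold change was 6.40 for D relative to Wa (log2 2.68 ± 0.26, SE) and 4.88 for D relative to Ws (2.29 ± 0.26). The hybrids were 4.79-fold higher than Wa and 3.65-fold higher than Ws, and their mean lay 84.3% of the way from the Wa mean to the D mean. W/D and D differed by -0.42 ± 0.26.

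Fucolectin-4 (C224R024) had the same order of groups at a much lower signal. In D its Cy5 signal ranged from 860 to 1642 with a median of 1047, and in W/D from 802 to 1276 with a median of 979. In Wa its median was 227 and in Ws 220, and it stood above local background in only 1 Wa and 2 Ws fish. D and W/D were thus measured in every fish and the wild groups were at the limit of detection. Every wild fish gave a Cy5 signal below 300 at this spot, which therefore passed the filter through D and W/D alone. Mean log2 ratios were 2.41 ± 0.46 for D and 2.63 ± 0.42 for W/D, against 0.22 ± 0.24 for Wa and 0.11 ± 0.31 for Ws (SD, n = 6). The log2 fold change was 2.20 ± 0.22 for D relative to Wa and 2.41 ± 0.22 for W/D relative to Wa. In the Cy5 channel alone the group means put D 7.36-fold and W/D 6.16-fold above Wa, values that apply to that channel. With Wa at the limit of detection, these ratios do not give exact differences in level. The order of W/D and D was not settled, with 0.21 ± 0.22 in the ratios, -0.26 in the Cy5 channel alone and -0.33 in the log2 ratios deposited by the authors. The Cy3 reference at this spot was 256 to 310 on the D arrays and 174 to 217 on the W/D arrays. On the Wa arrays it was 132 to 208, and on the Ws arrays 149 to 205. The part of the reference channel in these ratios was not tested. Over the 24 fish the log2 ratios of both fucolectins had a correlation of 0.90, and 0.24 once group means were removed, so that the first value reflects the difference between groups.

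**Figure D2:**
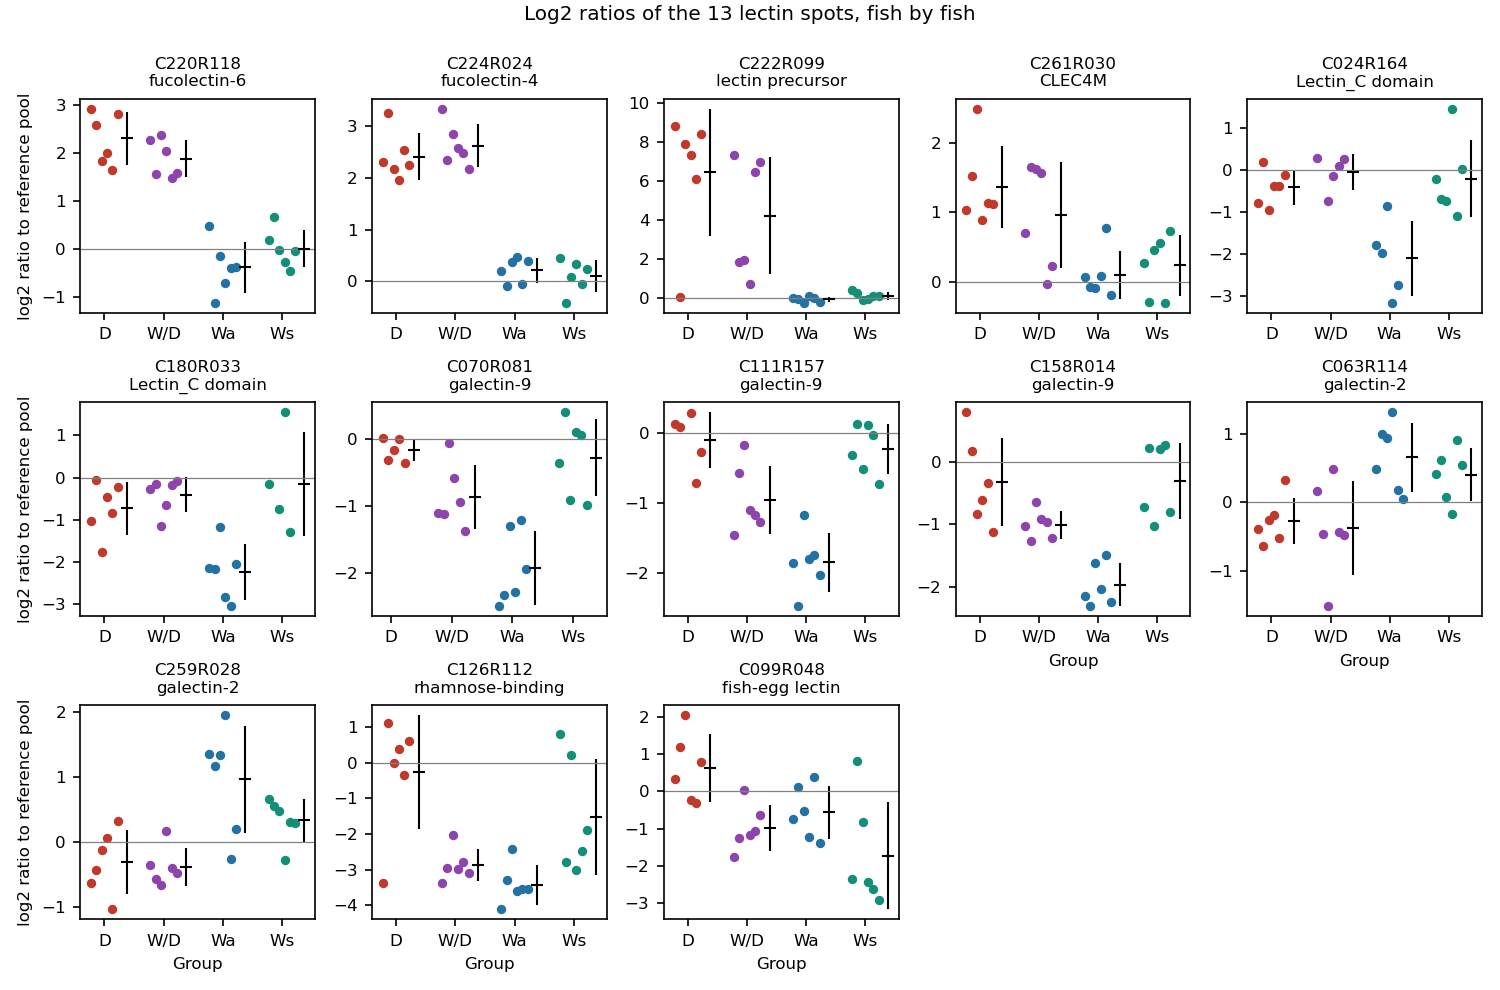
Log2 ratio of Cy5 over the Cy3 reference pool (y axis) for each lectin spot by group (x axis), with 1 point per fish; bars give the mean and SD. Both fucolectins separate D and W/D from both wild groups, whereas the Lectin_C and galectin-9 spots have their lowest mean in Wa.

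The C-type lectin CLEC4M (C261R030) is named after a human receptor of endothelial cells, among them those lining the vessels of the liver. Its Cy5 signal had a lowest, median and highest value of 744, 1427 and 2041 in D and of 614, 908 and 1764 in W/D. In Wa they were 454, 571 and 684, and in Ws 457, 653 and 720. Every D fish lay above every wild fish in the log2 ratio, while W/D overlapped with both wild groups: fish 2, 3 and 4 had log2 ratios of 1.65, 1.62 and 1.57, and fish 1, 5 and 6 had 0.71, -0.03 and 0.23. D was 2.41-fold higher than Wa (log2 1.27 ± 0.29) and 2.18-fold higher than Ws (1.13 ± 0.29), and W/D was 1.81-fold higher than Wa (0.86 ± 0.29) and 1.65-fold higher than Ws (0.72 ± 0.29). For D relative to Ws the spot was no longer called without D fish 3 or without background correction.

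The 2 spots with a Lectin_C domain had their lowest mean in the age-matched wild fish. At both spots Wa did not overlap with W/D, but did overlap with D and with Ws. The median Cy5 signal of C024R164 was 7342 in D and 9948 in W/D, against 2371 in Wa, and it was 5757 in Ws. For C180R033 these medians were 4496, 4641, 1094 and 3070. Mean log2 ratios of C024R164 were -0.41 ± 0.42 for D (SD, n = 6) and -0.05 ± 0.42 for W/D (n = 5), against -2.10 ± 0.89 for Wa (n = 5), and -0.20 ± 0.91 for Ws (n = 6), the missing fish having the quality flag. D relative to Wa was 1.69 ± 0.37 and W/D relative to Wa 2.05 ± 0.39, while D relative to Ws was -0.20 ± 0.35. For C180R033, with 4 Ws fish, D and W/D were 2.84-fold and 3.54-fold higher than Wa, and D relative to Ws was -0.57 ± 0.41. Wa relative to Ws was -1.90 ± 0.37 for C024R164 and -2.08 ± 0.41 for C180R033. The Ws fish were spread widely, from -1.09 to 1.46 for C024R164, and fish 4 was the highest at both spots. The call of C180R033 in W/D relative to Wa was lost without the 4 fish of slide 1. Over 20 fish with both values the correlation between the 2 spots was 0.97, and 0.96 with group means removed, so that they followed each other from fish to fish as well.

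**Figure D3:**
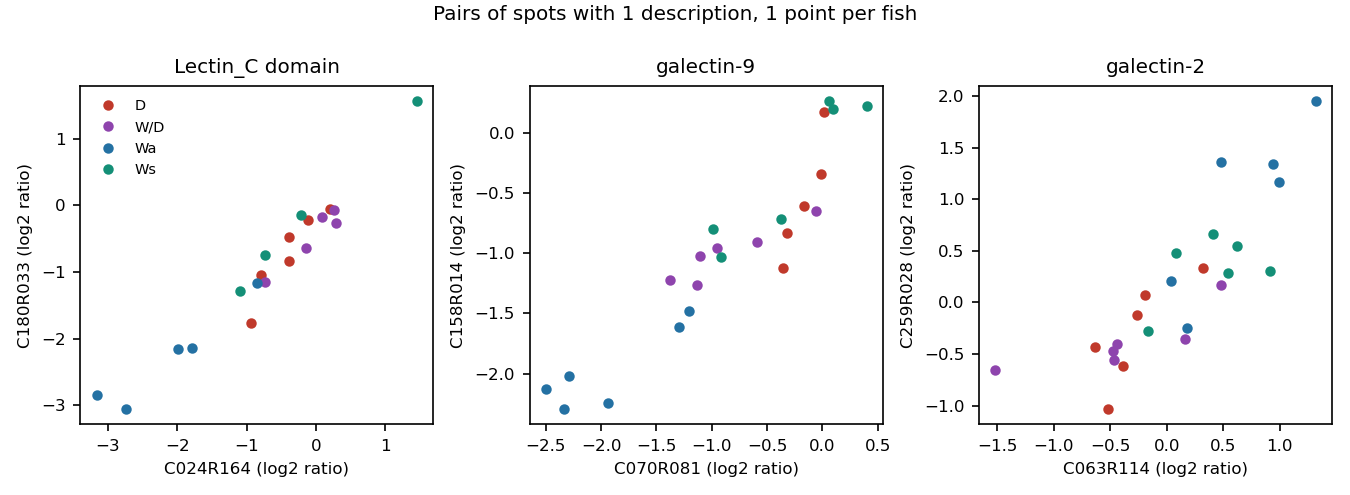
Log2 ratios of pairs of spots with the same description, Lectin_C domain, galectin-9 and galectin-2, with 1 point per fish coloured by group and 1 spot on each axis. The Lectin_C points lie on a narrow line with Wa at its lower end, and the galectin-2 points are more scattered with Wa towards the upper end.

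Galectin-9, which in mammals acts on T cells and other leukocytes, was also low in Wa at all 3 of its spots. The Cy5 signal of C070R081 had a lowest, median and highest value of 1756, 2559 and 4661 in D, 1517, 1810 and 2230 in W/D, 431, 824 and 1232 in Wa, and 1405, 1875 and 2392 in Ws. The fold change of D relative to Wa was 3.39, 3.37 and 3.11 at C070R081, C111R157 and C158R014, with log2 values of 1.76 ± 0.28, 1.75 ± 0.25 and 1.64 ± 0.27. D and Wa did not overlap at any of them, with values for 5 D fish at C070R081 and at C111R157. Relative to Ws, D was 0.12 ± 0.28, 0.13 ± 0.25 and -0.01 ± 0.27, and Wa was -1.64 ± 0.26, -1.63 ± 0.24 and -1.65 ± 0.27, with no overlap of Wa and Ws. The hybrid means lay between those of D and Wa, at 1.06 ± 0.26, 0.89 ± 0.24 and 0.96 ± 0.27 relative to Wa and -0.70 ± 0.28, -0.86 ± 0.25 and -0.68 ± 0.27 relative to D. They did not lie between D and Ws, since W/D relative to Ws was -0.58 ± 0.26, -0.73 ± 0.24 and -0.69 ± 0.27. The call of C070R081 in W/D relative to Wa, at 2.09-fold, was lost in 6 of the 24 fits without a single fish. It was also lost in 6 other settings, among them the slide as a block and no background correction. Correlations between the spots were 0.91, 0.93 and 0.88 over the fish, and 0.66, 0.79 and 0.54 with group means removed.

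Galectin-2, a member of the same family that in mammals is a protein of the gut, ran the other way. The median Cy5 signal of C259R028 was 733 in D and 761 in W/D, against 1295 in Wa, where the highest fish reached 2367, and 884 in Ws. D was lower than Wa by 2.40-fold at C259R028 (log2 -1.26 ± 0.28) and by 1.92-fold at C063R114 (-0.94 ± 0.27), and W/D was lower than Wa by 2.53-fold and 2.05-fold. Relative to Ws both groups were lower by between 1.55-fold and 1.71-fold at the 2 spots. The Wa fish overlapped with D and W/D at both spots, where Wa fish 5 and 6 were the 2 lowest of their group, with log2 ratios of -0.25 and 0.21 at C259R028 against 1.17 to 1.95 in the other 4. W/D and D differed by -0.08 ± 0.28 and -0.10 ± 0.27. The correlation between the spots was 0.84, and 0.70 with group means removed. The call of C259R028 in W/D relative to Wa was lost in the Cy5 channel alone, without the 4 fish of slide 1 and without W/D fish 2 and 3. At C063R114 the pairing of D relative to Wa fell below the required 2-fold, and that of W/D relative to Wa was called at 2.05-fold. The latter call was lost in 17 of the 24 fits without a single fish and in 7 other settings, among them the slide as a block.

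The rhamnose-binding lectin precursor (C126R112) varied widely among the fish of D and of Ws, with an SD of the log2 ratio of 1.60 and 1.63 (n = 6) against 0.45 in W/D and 0.56 in Wa, and D had the highest mean. In D its Cy5 signal was 428 in fish 1 and between 12027 and 17081 in the other 5. In Ws it was 9611 and 11124 in fish 1 and 3 and between 1394 and 2606 in the other 4. In W/D it ranged from 594 to 3079 and in Wa from 411 to 1785, with the lowest value of each of these groups on slide 1. On slide 1 the Cy3 reference also read low, between 4271 and 4869, against 8301 to 15230 on the other 5 slides, and 17 of the 24 spots carried the quality flag. D stood above Wa by a log2 fold change of 3.15 ± 0.50 and above Ws by one of 1.26 ± 0.50, and that of the hybrids relative to D was -2.60 ± 0.50. With all fish of slide 1 left out these became 3.63 ± 0.38, 2.34 ± 0.38 and -3.12 ± 0.38. D fish 1, the lowest of its group, and Ws fish 1, high in its group together with fish 3, were both taken to be on slide 1. The part of the slide in these values was not tested.

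**Figure D4:**
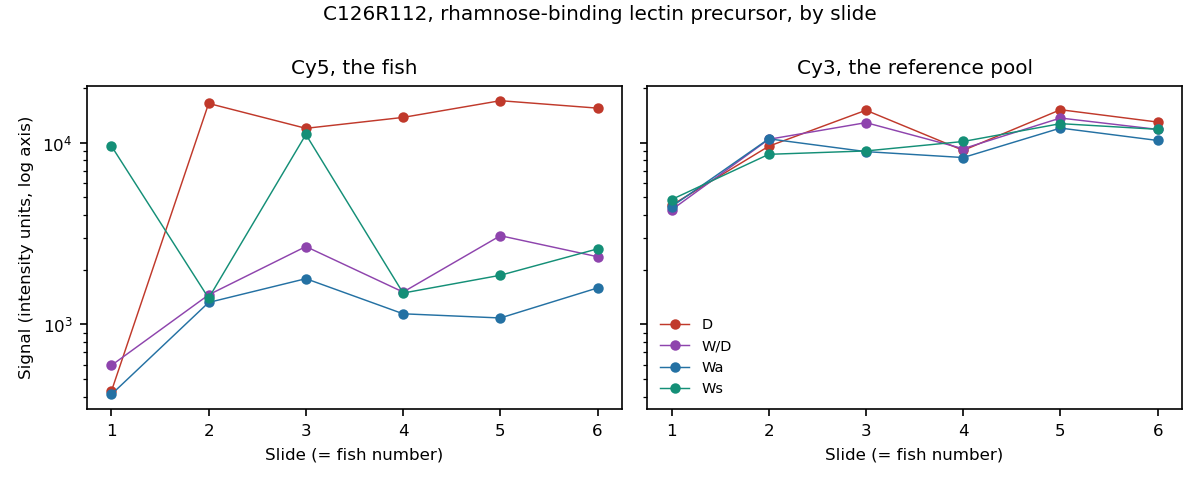
Signal (log axis, intensity units) of the rhamnose-binding lectin spot C126R112 by slide, for Cy5 (left) and the Cy3 reference pool (right), with a line for each group. D fish 1 lies at 428 against at least 12027 in the other D fish, Ws fish 1 and 3 stand above the other Ws fish, and the reference is low on slide 1 in all groups.

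Fish-egg lectin (C099R048), a sugar-binding protein known from carp eggs, was highest in D. Its Cy5 signal had a lowest, median and highest value of 1664, 2906 and 7725 in D, 604, 1104 and 1517 in W/D, 981, 1098 and 2107 in Wa, and 286, 385 and 1980 in Ws. D fish 3 was the highest of all, and Ws fish 2 and 3, at 1980 and 862, stood above the other 4 Ws fish, which were between 286 and 429. D was 5.13-fold higher than Ws (log2 2.36 ± 0.48), 2.29-fold higher than Wa (1.20 ± 0.48) and 3.05-fold higher than W/D (W/D relative to D, -1.61 ± 0.48), and its fish overlapped with those of all 3 groups. The hybrid mean was thus close to that of Wa, with W/D relative to Wa at -0.41 ± 0.48. W/D relative to D was not called in the fit without a block, and was called with the slide as a block.

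**Figure D5:**
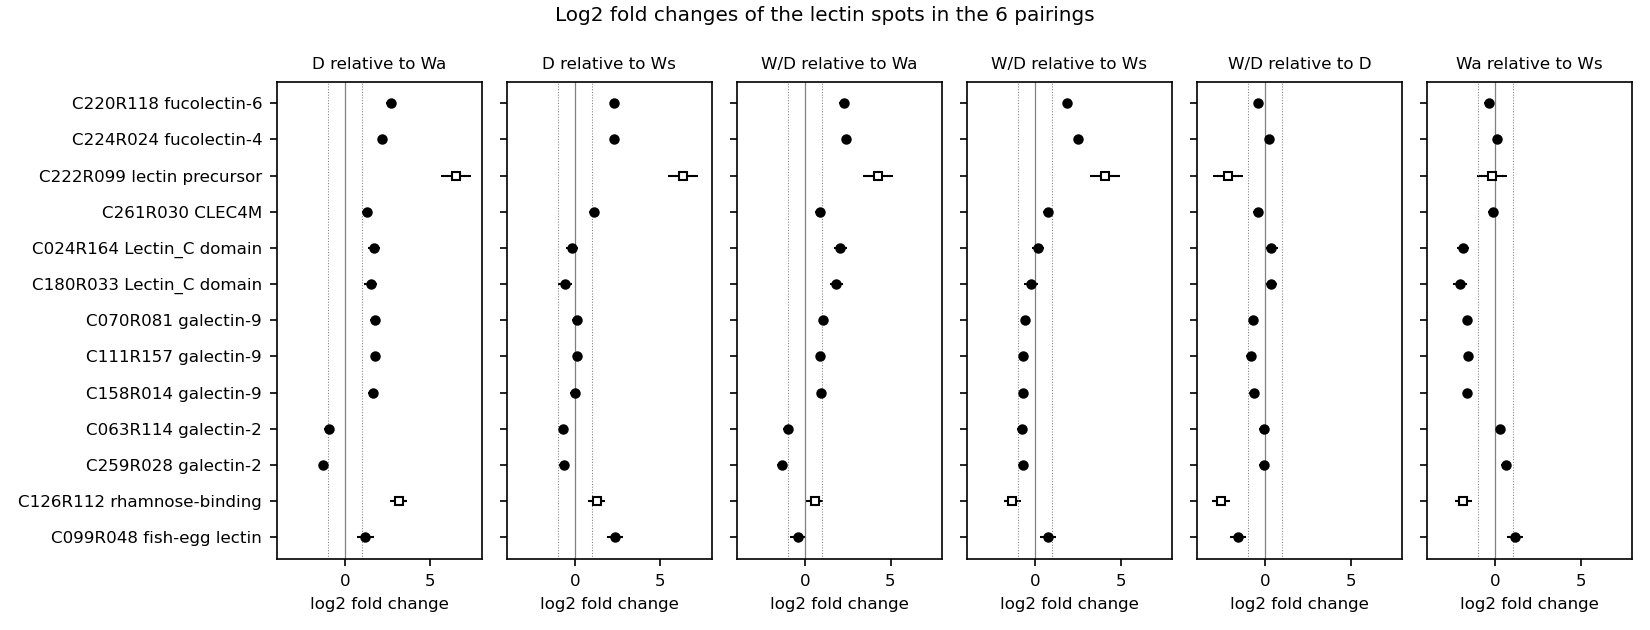
Log2 fold change (x axis, with SE) of each lectin spot in the 6 pairings; dotted lines mark a fold change of 2, and open squares are the 2 spots outside the filter, from the fit without it. The fucolectins and C222R099 lie to the right in all 4 pairings of D or W/D with a wild group, and the Lectin_C and galectin-9 spots lie at 0.89 or more only where Wa is the wild group.

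Counted over the 11 kept spots, 9 were called in D relative to Wa, where 3.62% of all kept oligos were called. Of these, 8 were higher and 1 was lower, with 2.05% and 1.56% of all kept oligos. In D relative to Ws there were 4, all higher, against 3.43%. In W/D relative to Wa there were 7 against 0.924%, with 5 higher against 0.628% and 2 lower against 0.297%. For the hybrids relative to Ws the count was 2 against 2.03% and relative to D it was 0 against 0.753%. Fucolectin-4 is counted in all 4 pairings of D or W/D with a wild group. The filter kept fucolectin-4 only for its signal in D and W/D, so these calls are not independent of the filter. Between the wild groups 5 were called, all lower in Wa, against 0.879%. They were the 3 galectin-9 spots and the 2 Lectin_C spots, and here as in the other counts spots of the same description were counted separately. Groups did not overlap at 6, 3, 5, 2, 0 and 3 of the spots in these pairings, and among kept oligos with all 12 values at 3.62%, 3.42%, 1.24%, 2.02%, 1.28% and 1.61%. Lectin spots with missing fish were included in the former, over the fish with a value, so the 2 measures are not alike. Since the spots were listed for these pairings, nothing is read from the counts. With median centring of the arrays in place of loess, the share of called oligos that were higher in D than in Wa was 32.5% and not 56.8%, while 8 of the 10 lectin spots then called were higher. The pairings of D with Wa and with Ws share the D fish, and those with Wa share the Wa fish. The 11 spots had a median log2 fold change of 1.64 between D and Wa and of 0.12 between D and Ws, while that of all kept oligos was -0.02 and -0.01. These medians come from the same listed spots, with spots of the same description entered separately, and nothing is read from them either.

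Of the kept oligos outside the list, those most like fucolectin-6, C222R099 and CLEC4M were found by correlation of log2 ratios over the fish. For fucolectin-6 they were calcium/calmodulin-dependent protein kinase type II delta chain (r = 0.93, 21 fish), GDP-L-fucose synthetase (0.92, 20 fish), the enzyme of the last step in making the activated form of fucose, and the nucleoside transporter SLC28A3 (0.89, 24 fish). GDP-L-fucose synthetase was also the third most like C261R030 (0.78, 20 fish), after an unnamed oligo (0.85, 20 fish) and NADH-ubiquinone oxidoreductase chain 2 (0.79, 24 fish). The oligos most like C222R099 were an unnamed oligo (0.83), the solute carrier SLC35B1 (0.83) and another spot of SLC28A3 (0.82), over 24 fish. With group means removed, the 3 values for fucolectin-6 were 0.32, 0.07 and -0.03. Those for C261R030, in the order GDP-L-fucose synthetase, the unnamed oligo and the oxidoreductase, were 0.40, 0.78 and 0.51, and those for C222R099 were 0.74, 0.62 and 0.48. All values come from the same arrays.

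Other defence proteins listed by the study were set beside the lectins, as complement components, lysozyme C II, the chemotactic protein leukocyte cell-derived chemotaxin 2 and the antimicrobial peptide LEAP-2. Of 12 kept spots, 9 were called higher in D than in Wa and none lower, against 2.05% and 1.56% of all kept oligos. Relative to Ws, 6 were called higher in D and 1 lower, against 2.43% and 1%. In the hybrids 8 were called higher than in Wa and 5 higher than in Ws, against 0.628% and 1.37%. Lysozyme C II, which breaks bacterial cell walls, was higher in D and W/D relative to both wild groups at all 3 of its spots, as the fucolectins were, with log2 values of 3.08 ± 0.39 and 2.06 ± 0.39 for D relative to Wa and Ws at C099R149. Complement C3-1, the central protein of complement, was called lower in Wa than in Ws at 2 of its 3 spots, with -2.73 ± 0.44 at C097R144 and -2.06 ± 0.34 at C138R093, the direction of galectin-9 and the Lectin_C spots. The third, C262R149, had -1.001 ± 0.366 and was not called. LEAP-2 (C260R076) was called in D relative to Ws at 2.82 ± 0.55 and was 1.31 ± 0.57 relative to Wa. Complement C4-A (C197R020) was lower in D than in Ws, at -1.02 ± 0.19.

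In bulk liver RNA, fewer cells of a type and less RNA per cell cannot be told apart. The hepatocyte markers albumin, apolipoprotein A-I, fibrinogen beta chain, plasminogen and complement C3-1 were measured in all groups, with group medians of Cy5 between 361 and 14100. Of their 7 spots, 3 of which are the complement C3-1 spots above, 6 were called higher and fibrinogen beta chain lower in D relative to Wa, where 2.05% and 1.56% of all kept oligos were. Their median log2 fold change there was 1.84, beside 1.64 for the lectins. In D relative to Ws 3 were called higher and 1 lower, against 2.43% and 1%, and the median was 0.94, beside 0.12 for the lectins. In W/D relative to Wa 4 were called higher against 0.628%, and in Wa relative to Ws 2 were called lower against 0.377%, both of complement C3-1. Markers of other cells moved with the groups too. Over the 20 kept hemoglobin spots of 35, the mean log2 ratio of a fish was 0.09 to 2.09 in D and -0.17 to 0.71 in W/D. It was -0.34 to 0.15 in Wa and -1.08 to -0.17 in Ws, and 15 of them were called higher in D relative to Ws against 2.43% of all kept oligos. The 5 B cell spots had 2 higher and 2 lower calls in D relative to Wa, against 2.05% and 1.56%. In D relative to Ws they had 3 higher and 1 lower, against 2.43% and 1%. They had none in the other 4 pairings, where 0.753% to 2.03% of all kept oligos were called. Of the 7 spots of muscle actin and actinin, 5 were called lower in Wa relative to Ws against 0.377%, and the median log2 fold change of the 7 was -1.83. In D relative to Wa 4 were called higher and 1 lower, against 2.05% and 1.56%. In the hybrids 6 were called lower relative to Ws against 0.662%, and 5 relative to D against 0.365%. Relative to Wa it was 1 against 0.297%, and the median was -0.20. These markers were also listed for differences between the same fish, and their part in the lectin values was not tested.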

How the data were processed

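The intensity values deposited by the authors are ImaGene's spot means and local backgrounds for Cy5 and Cy3, without normalization. The log2 ratios deposited by the authors were LOWESS-normalised in GeneSpring and set to the median over samples, and were used here only as an alternative. Intensities were background-corrected by normexp (offset 50; signal mean, background median) and normalised by loess (span 0.3) within arrays in R 4.3.3 with limma 3.58.1, with control and flagged spots at no weight. The software's flag for spot quality was taken as missing unless the spot was saturated. This keeps bright spots, whose level is then a lower limit. Kept oligos were fitted over the 4 groups with limma, with Benjamini-Hochberg adjustment over all 8764 (adjusted p at most 0.05, fold change at least 2). SE are from this fit, except where fish were left out and for C222R099 and C126R112, whose SE come from the fit without the filter. Names come from the study's supplementary lists, which hold no other lectins, and oligo sequences were not used here. Columns of the study's own fold changes and p-values in those lists were not used. Members and lists were chosen with earlier results of these data known. A signal counted as above background at 2 standard deviations over the mean local background. Alternatives covered the flag, background correction, normalisation, filter, Cy5 channel alone, deposited ratios, slide block, single fish and the methods' ANOVA with Tukey.

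The sources name no slide for a fish. Replicate numbers were taken to mark the slide, since the array codes in the labels share 1 number for each replicate across the groups and the design puts 1 fish of every group on a slide. Between fish of different groups on 1 slide, the correlation of deviations from group means, across 6996 oligos, was -0.13 to 0.18 (median 0.02, 36 pairs), against -0.20 to 0.18 (median -0.01, 180 pairs) for different slides. Spots with the same description were not merged. The titles of D fish 4 and 6 carry 1 fish code. Their difference over oligos had an SD of 0.63, the rank 8 of 15 pairs of D fish, and they were kept as separate fish. The number of arrays limits precision. The fit was tested on simulated data. Plots used Python 3.11.15 with matplotlib 3.10.9.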

Additional observations from a re-analysis of the deposited data

Results flagged for a closer look

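In 4 of the 52 combinations of a lectin spot and a group, 1 fish stood farther from the others than Dixon's criterion allows. Chance alone flags about 1 in 20 such groups. D fish 1 had a log2 ratio of -3.36 for the rhamnose-binding lectin C126R112, where the nearest D fish was at -0.36. D fish 2 had a log2 ratio of 0.03 for the lectin precursor C222R099, where the nearest D fish was at 6.11, and the same fish had a Cy5 signal of 198 for C258R028. W/D fish 4 had 0.17 for galectin-2 at C259R028, with the nearest at -0.35. Wa fish 5 had 0.78 for CLEC4M at C261R030, with the nearest at 0.09.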

How the results depend on the processing

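No called lectin spot changed direction under any alternative. Asking for a signal of 300 on every one of the 24 arrays, which left 4334 oligos and 5 lectin spots, gave 93, 97, 18, 51, 18 and 19 called oligos for D against Wa, D against Ws, W/D against Wa, W/D against Ws, W/D against D and Wa against Ws. Of the lectins, 4, 2, 2 and 1 were then called in the first 4 of these and 1 in Wa against Ws. With no filter, 460 oligos were called for D against Ws and 112 for W/D against D. Without background correction the counts were 113 for W/D against Ws and 50 for Wa against Ws.

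For W/D against D, the lectin count of 0 became 1 with the quality flag disregarded (C126R112), with the replicate block for the slide (C099R048) and with the methods' ANOVA (C099R048), and it ranged from 0 to 1 over the fits without single fish (1 without Ws fish 2, D fish 2, D fish 5 or W/D fish 3). With the replicate block, 324, 309, 84, 186, 75 and 72 oligos were called in the order above, and apart from the calls named in the report none of the lectin counts changed.

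Further alternatives were chosen after seeing the data. Without the 4 fish of slide 1, 38 oligos were called for W/D against D and 48 for W/D against Wa, with 3 lectins in the latter. Without W/D fish 2 and 3 the lectin count was 4 for W/D against Wa and 1 for W/D against D, and it was also 1 for W/D against D without D fish 2 and W/D fish 4. The cause was not tested. With all flagged spots missing, saturated ones included, C222R099 fell to 4.03 for D relative to Wa and 1.97 for W/D relative to Wa. That setting took out most of the bright fish. It left D fish 2 and 3, with log2 ratios of 0.03 and 7.88, and W/D fish 2 and 3, with 1.84 and 1.94. In the Cy5 channel alone W/D relative to Wa was 6.58. Without background correction fucolectin-4 was 1.97 for W/D relative to Wa.

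With arrays centred on their medians, the middle log2 difference over the tested oligos shifted by more than 0.1 in 4 pairings, to -0.18 for D against Wa, 0.16 for W/D against Ws and W/D against D, and 0.17 for Wa against Ws. The share of called oligos that were higher then went from 56.8% to 32.5%, from 67.4% to 83.2%, from 51.5% to 83.8% and from 57.1% to 79.6%. In the Cy5 channel alone it was 70.7% for Wa against Ws. Among the lectins, median centring added the call of C063R114 for D relative to Wa and lost it for W/D relative to Wa. The Cy5 channel alone also added C063R114 for D relative to Wa, and lost C259R028 for W/D relative to Wa. Other lectin calls were unchanged under these 2 settings.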
